A study of Saccharomyces cerevisiae with 21 samples.

Results

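The genes described here encode the factors that start, extend and end protein synthesis on cytosolic ribosomes of the budding yeast Saccharomyces cerevisiae. They form a list of 37 genes named by symbol, and a gene was taken as measured where a probe set of the array carried its symbol in the probe annotation. By that rule 35 of the 37 were measured, among 5449 yeast genes in all. TIF1 and EFT1 had no probe set under their own name. TIF2, the gene of the same protein as TIF1 (translation factor eIF4A), was measured by a probe set named _s_at, a type that can bind more than 1 related transcript, so TIF1 transcripts may contribute to its signal.

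Translation begins when eIF2, loaded with GTP and the initiator methionyl-tRNA, joins the small ribosomal subunit together with eIF1, eIF1A, eIF3 and eIF5. The eIF4F complex and its partners bring this subunit to the capped end of an mRNA, where it scans to the start codon and eIF5B helps the large subunit to join. Elongation factors then deliver aminoacyl-tRNAs and move the ribosome along, and release factors free the finished chain. In yeast most of these proteins are abundant and their genes are strongly transcribed during rapid growth.

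Transcript levels were measured on 21 Affymetrix arrays, 3 for each of 7 groups. In YPD, a rich medium, the groups were untreated cells, cells under heat stress, cells given ISP1, and cells given both heat stress and ISP1. In synthetic complete medium (SC) they were untreated cells, cells given myristate, which is a saturated fatty acid, and cells given myristate with ISP1. ISP1 is myriocin, which blocks serine palmitoyltransferase, the enzyme that opens the sphingolipid pathway. The labels give 45 min for all treatments except myristate with ISP1, which has no time; in that group the number following ISP differs between title and description for replicates 2 and 3, and the titles were used. The labels give no strain, temperature, dose or vehicle. Nor do they state that replicates came from different cultures, and p-values therefore rest on a spread between arrays that may be technical.

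Levels below are log2 signals of single arrays, and each difference is a log2 fold change with its standard error (SE) from limma. A gene was said to rise or fall where limma's p-value, adjusted over all 5449 genes by the Benjamini-Hochberg method, was under 0.05. The median gene lay between 10.21 and 10.33 on every array, and replicates correlated with r of 0.993 to 0.998 across genes. All 35 genes exceeded 4.89, the 95th percentile of probe sets for another species, on each of the 21 arrays. The top signal on any array was 15.07, and the EFB1, HYP2, YEF3, PAB1 and TIF2 signals lay at about 14 in untreated cells, where an array may compress differences. In bulk RNA of this kind, fewer cells of a type and less RNA per cell cannot be told apart.

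Across the 7 groups, translation factor transcripts moved more than the typical gene. The span between the lowest and the highest group mean had a median of 1.29 for the 35 genes, against 0.91 over all genes, while the SD within groups had a median of 0.07 against 0.10. Heated cells with ISP1 held the lowest group mean for 29 of the 35 genes, as they did for 24.1% of all genes. Untreated cells in YPD held the highest for 27, as they did for 30.1% of all genes. TIF4631 had the widest span, 2.64, followed by TIF3 with 2.21, NIP1 with 1.93 and TEF4 with 1.82.

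**Figure D1:**
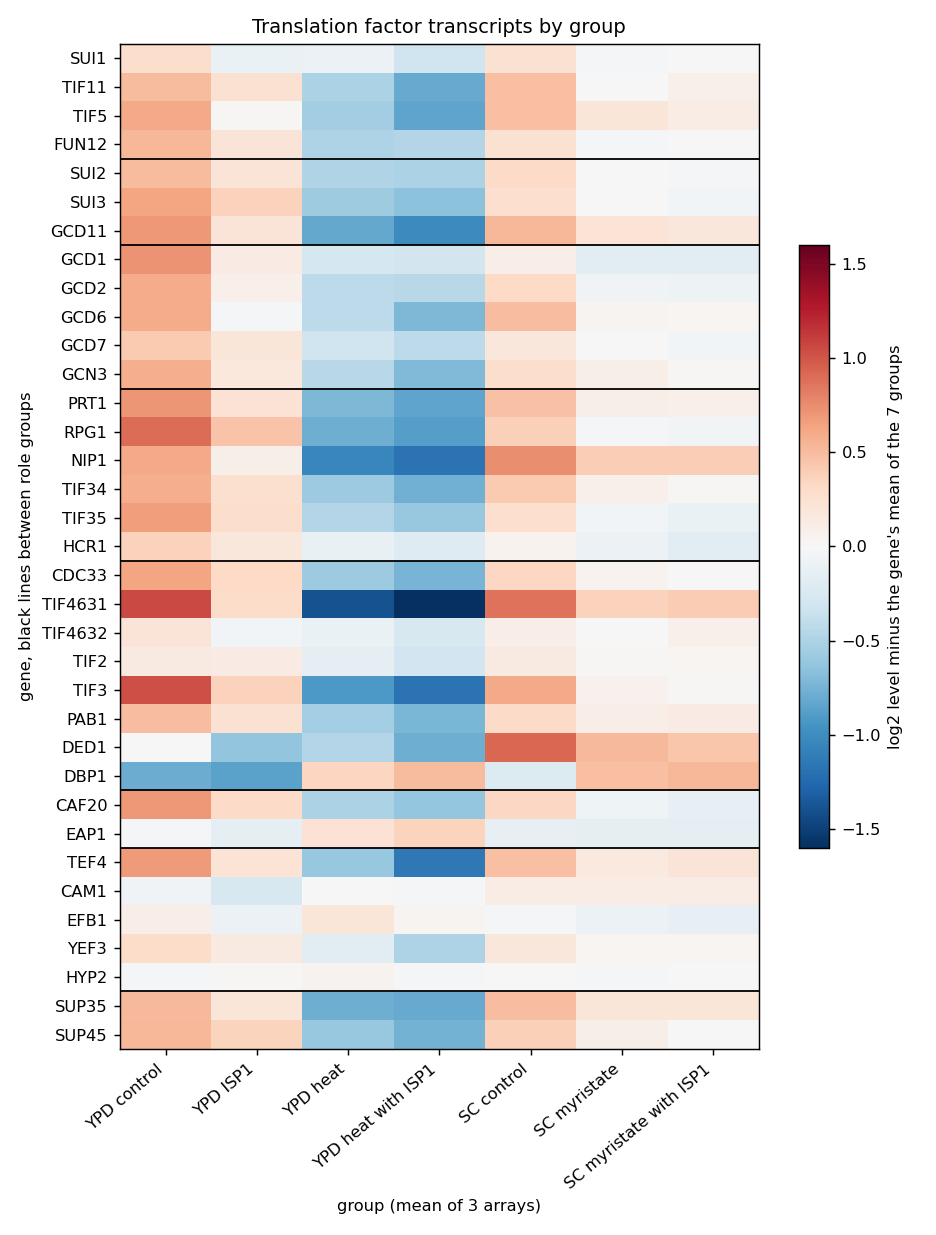
Mean log2 level of each of the 35 translation factor genes in the 7 groups (columns, 3 arrays each), as the difference from the gene's own mean over the groups; red is above that mean and blue below it. Most genes were darkest red in untreated YPD cells and darkest blue in heated cells with ISP1, whereas DBP1 and EAP1 ran the other way in the heated groups; the palest columns differ least from the mean and the deepest blue is TIF4631 in heated cells with ISP1.

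Heated YPD cells were first compared with untreated ones, for the response to heat stress. Of the 35 genes 30 fell, 2 rose and 3 did not pass, and the median change was -1.02, against -0.00 over all genes. Over the whole array 40.9% of genes were called lower and 39.8% higher, 80.6% in all. At least a 2-fold change was called for 22 of the 35 genes and for 27.3% of all genes. The heated and untreated arrays did not overlap for 33 of the 35 genes, and for 83.1% of all genes. The 32 calls were kept under each of the 13 alternatives run for single genes.

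All 4 genes of the factors that scan for the start codon and join the subunits fell under heat, with a median of -1.01. TIF5, the gene of eIF5, the GTPase activator of eIF2, stood at 12.60, 12.75 and 12.69 in untreated cells and at 11.39, 11.59 and 11.59 in heated cells, a change of -1.16 ± 0.07. TIF11 (eIF1A) changed by -1.01 ± 0.09 and FUN12 (eIF5B) by -1.02 ± 0.06. SUI1, the gene of eIF1, which guards start codon choice, fell least of the 4, by 0.37 ± 0.05 (adjusted p = 1.31e-06).

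The 3 subunit genes of eIF2, which carries the initiator tRNA, fell together. The beta subunit gene SUI3 changed by -1.21 ± 0.10, the gamma subunit gene GCD11 by -1.51 ± 0.06 and the alpha subunit gene SUI2 by -0.99 ± 0.07. All 5 subunit genes of eIF2B, which recharges eIF2 with GTP, also fell, over a narrow range from -1.04 ± 0.08 for the regulatory alpha subunit gene GCN3 to -0.74 ± 0.10 for the beta subunit gene GCD7. The gamma subunit gene GCD1 read 11.89, 11.99 and 11.86 in untreated cells and 10.57, 11.14 and 11.06 in heated cells. Its heated arrays spread more widely than its untreated ones but did not reach them.

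The 6 genes of eIF3, the scaffold of the initiation complex, fell with a median of -1.30. RPG1, the gene of the a subunit, went from 13.37, 13.29 and 13.37 to 11.62, 11.71 and 11.67, a change of -1.68 ± 0.07 or 3.20-fold lower (adjusted p = 2.65e-13). NIP1 (c subunit) followed at -1.65 ± 0.10 and PRT1 (b subunit) at -1.42 ± 0.06, with TIF34 (i subunit) at -1.17 ± 0.05 and TIF35 (g subunit) at -1.14 ± 0.08. HCR1, the gene of the loosely bound j subunit, changed by -0.49 ± 0.05. Its 3 heated arrays, at 12.10, 12.12 and 12.05, were nonetheless below the untreated ones at 12.62, 12.58 and 12.55.

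Genes of cap binding and unwinding covered the full width of the response, with 7 falls and 1 rise among the 8 measured. TIF4631, the gene of the eIF4G scaffold isoform eIF4G1, read 12.61, 12.69 and 12.60 in untreated cells and 10.14, 10.30 and 10.13 in heated cells. This was a change of -2.45 ± 0.06, or 5.45-fold lower (adjusted p = 9.76e-17), the deepest fall among the 35. TIF3, the gene of eIF4B, which aids unwinding, went from 12.97, 12.99 and 13.00 to 11.01, 11.07 and 11.03, a change of -1.95 ± 0.07. CDC33, the gene of the cap-binding protein eIF4E, changed by -1.22 ± 0.05, and PAB1, the gene of the poly(A)-binding protein, by -1.04 ± 0.06. TIF4632, the gene of the second eIF4G isoform, changed by only -0.31 ± 0.05 and TIF2 by -0.30 ± 0.05.

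DBP1, the gene of a DEAD-box RNA helicase related to Ded1, was the larger of the 2 rises. Its untreated arrays read 7.85, 7.80 and 7.65 and its heated arrays 8.94, 8.86 and 8.92, all of them higher. The change was 1.14 ± 0.14, a 2.21-fold increase (adjusted p = 3.10e-07). EAP1, the gene of an eIF4E-binding protein that competes with eIF4G, also rose, by 0.26 ± 0.07 (adjusted p = 0.00234). It read 10.73, 10.66 and 10.70 without heat and 10.99, 10.94 and 10.94 with it, so the groups did not overlap. CAF20, the gene of the other eIF4E-binding protein, went the opposite way, at -1.20 ± 0.05.

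By the share of genes called, elongation factor genes were the least affected role group. The EFB1, HYP2 and YEF3 signals, however, lay where an array may compress differences. Of the 5 measured, TEF4 and YEF3 fell and the other 3 did not pass. TEF4, a gene of the gamma subunit of the exchange factor eEF1B, went from 13.76, 13.82 and 13.78 to 12.43, 12.55 and 12.50, a change of -1.29 ± 0.05. YEF3, the gene of the fungal elongation factor eEF3, went from 14.35, 14.36 and 14.31 to 13.92, 13.87 and 13.81, a change of -0.47 ± 0.05. CAM1, the other gamma subunit gene, read 12.49, 12.48 and 12.51 without heat and 12.57, 12.54 and 12.51 with it, a difference of 0.05 ± 0.06 (adjusted p = 0.460) between overlapping groups. EFB1 (eEF1B alpha) stood at 0.09 ± 0.05 (adjusted p = 0.0709) and HYP2, the gene of the hypusine-bearing factor eIF5A, at 0.09 ± 0.05 (adjusted p = 0.105). With quantile normalization over the yeast probe sets EFB1 (adjusted p = 0.0127) and HYP2 (adjusted p = 0.00400) passed as rises; over all alternatives these p-values ran from 0.0127 to 0.156 and from 0.00400 to 0.266. Both release factor genes fell, SUP35 (eRF3) by 1.30 ± 0.05 and SUP45 (eRF1) by 1.13 ± 0.09.

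Of 11 pairs of probe sets at both ends of yeast control transcripts, 8 had a higher 3' minus 5' signal in heated than in untreated cells. Some transcripts, such as ACT1 (YFL039C), are covered by more than 1 pair, so the pairs are not independent. The mean over the 11 ran from 1.19 to 1.31 on untreated arrays and from 1.26 to 1.43 on heated ones, and its part in the falls was not tested.

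**Figure D2:**
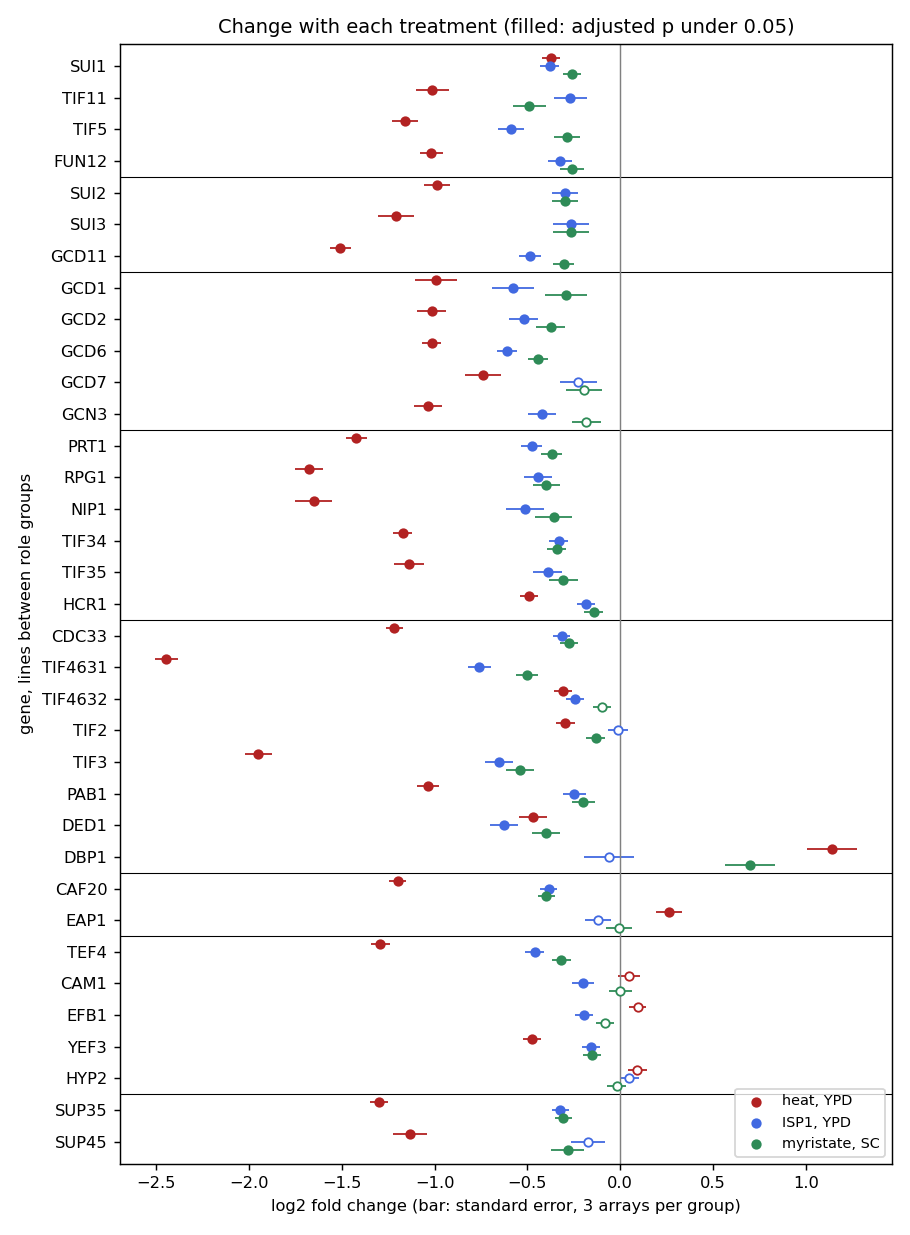
Log2 fold change (x axis; bars, SE) of the 35 genes with heat (red) and ISP1 (blue) against untreated YPD cells and with myristate (green) against untreated SC cells, 3 arrays per group; filled points passed an adjusted p of 0.05 and lines divide the role groups. Red points lie farthest left for most initiation and release factors, with TIF4631 at -2.45, and to the right of 0 for DBP1 and EAP1.

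The comparison of ISP1-treated with untreated YPD cells asked what blocking sphingolipid synthesis does without heat. Here 29 of the 35 genes fell, none rose and 6 did not pass, where 33.2% of all genes were called lower and 27.9% higher, 61.1% in all. The arrays of both groups did not overlap for 32 of the 35 genes and for 66.1% of all genes. The median was -0.32, against -0.04 over all genes, and no translation factor gene reached a 2-fold change, which 8.33% of all genes did. This comparison shares its untreated arrays with the heat comparison.

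All 4 scanning and joining factor genes and all 3 eIF2 genes fell, from -0.59 ± 0.07 for TIF5 to -0.27 ± 0.10 for SUI3 and -0.27 ± 0.09 for TIF11. For eIF2B the catalytic epsilon subunit gene GCD6 led, at -0.61 ± 0.05, with GCD1 at -0.58 ± 0.11 and the delta subunit gene GCD2 at -0.52 ± 0.08. GCD7 stood at -0.23 ± 0.10 with an adjusted p of 0.0546. Blocking on the replicate number made it a fall (adjusted p = 0.0293, within a range of 0.0293 to 0.239 over its alternatives). All 6 eIF3 genes fell, between -0.51 ± 0.10 for NIP1 and -0.18 ± 0.05 for HCR1. The eIF3 changes were thus small beside those of heat, which carried RPG1 to -1.68.

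TIF4631 again had the deepest fall, to 11.83, 11.93 and 11.87 in ISP1-treated cells, a change of -0.76 ± 0.06 (adjusted p = 5.96e-09). TIF3 followed, at 12.35, 12.37 and 12.28, a change of -0.65 ± 0.07. DED1, the gene of an RNA helicase needed for scanning, read 11.76, 11.71 and 11.72 in untreated cells and 11.12, 11.09 and 11.10 with ISP1, a change of -0.63 ± 0.07. For these 3 genes every ISP1 array lay below every untreated array. With heat DED1 had fallen by 0.47 ± 0.07. DBP1 stood at -0.06 ± 0.14 (adjusted p = 0.729), TIF2 at -0.01 ± 0.05 and EAP1 at -0.12 ± 0.07.

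Of the elongation genes TEF4 (-0.46 ± 0.05), CAM1 (-0.20 ± 0.06), EFB1 (-0.19 ± 0.05) and YEF3 (-0.16 ± 0.05) fell, and HYP2 stood at 0.05 ± 0.05. SUP35 fell by 0.32 ± 0.05, and SUP45 stood at -0.17 ± 0.09 (adjusted p = 0.110). With only the arrays compared SUP45 passed as a fall (adjusted p = 0.0313, in a range of 0.0313 to 0.260 over its alternatives). CAM1 lost its call without ISP1 array 2, and YEF3 without that array or with only the arrays compared. SUI3 lost it without control array 1, control array 3 or ISP1 array 3, and TIF11 without control array 3 or ISP1 array 1.

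The effect of adding ISP1 to heat was read from both heated groups. With ISP1 17 of the 35 genes fell and none rose, where 16.3% of all genes were called lower and 16.5% higher, 32.7% in all. The groups did not overlap for 18 of the 35 genes and for 45.4% of all genes, and the median was -0.15 against 0.01 over all genes. The count depended on single arrays and on the fit: it was 9 without heat array 2 and 9 without heat with ISP1 array 1. With only the arrays compared it was 6. That fit leaves the changes as they were and takes the spread from the heated groups alone. The 6 genes whose call was kept in each of the 13 alternatives run for single genes were TEF4, DED1, YEF3, GCD6, TIF5 and SUI1.

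TEF4 led, going from 12.43, 12.55 and 12.50 in heated cells to 12.01, 11.89 and 11.99 with ISP1, a change of -0.53 ± 0.05 (adjusted p = 5.21e-07). YEF3 went to 13.49, 13.57 and 13.59, a change of -0.32 ± 0.05. DED1 read 11.15, 11.39 and 11.24 in heated cells and 11.08, 10.92 and 10.83 with ISP1, a change of -0.32 ± 0.07 (adjusted p = 0.00332). In these 3 genes the arrays of both groups did not overlap, though the DED1 groups came within 0.1 of each other. GCD6 changed by -0.30 ± 0.05, TIF5 by -0.29 ± 0.07 and SUI1 by -0.23 ± 0.05. Neither the release factor nor the eIF4E-binding protein genes passed. CAF20, at -0.11 ± 0.05 (adjusted p = 0.0689), passed as a fall with quantile normalization (adjusted p = 0.0376), with median centring (0.0323) and without heat array 3 (0.0425), in a range of 0.0323 to 0.282 over its alternatives.

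Whether ISP1 acts differently in heated and unheated cells was tested as an interaction, the ISP1 change with heat minus the ISP1 change without it. It passed for 15 of the 35 genes, positive for each of them. Over all genes 40.9% passed, 21.8% called higher and 19.1% lower. At 2-fold it passed for none of the 35 and for 4.97% of all genes. The median was 0.22, against 0.04 over all genes. TIF4631 had the clearest difference, 0.56 ± 0.09 (adjusted p = 4.81e-05): ISP1 changed it by -0.76 without heat and by -0.19 ± 0.06 with heat, where its arrays read 9.90, 10.01 and 10.08. For GCD1 the difference was 0.56 ± 0.16 and for GCD2 0.49 ± 0.11. Without heat, ISP1 took GCD1 to 11.32, 11.38 and 11.31, below all untreated arrays. With heat it read 10.68, 10.99 and 11.03, inside the range of the heated arrays.

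GCD2 behaved likewise, reading 11.32, 11.29 and 11.14 in untreated cells and 10.84, 10.65 and 10.70 with ISP1. In heated cells it read 10.14, 10.26 and 10.30, and 10.04, 10.32 and 10.25 with ISP1 added, so that only the unheated pair of groups was apart. By role the interaction passed for 3 of 5 eIF2B genes, 3 of 6 eIF3 genes, 2 of 3 eIF2 genes and 3 of 8 cap-binding and unwinding genes. Over all genes 40.9% passed in either direction and 21.8% as a positive difference, and differences between roles were not tested. The interaction passed for none of the 5 elongation genes, of which YEF3 came closest (-0.16 ± 0.07, adjusted p = 0.0653). With median centring YEF3 passed as a negative difference (adjusted p = 0.0324, in a range of 0.0231 to 0.263 over its alternatives). TEF4, at -0.07 ± 0.07 (adjusted p = 0.490), fell by 0.46 with ISP1 alone and by 0.53 with ISP1 in heat. The 4 groups include those of both comparisons above, so these values are not independent of them.

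**Figure D3:**
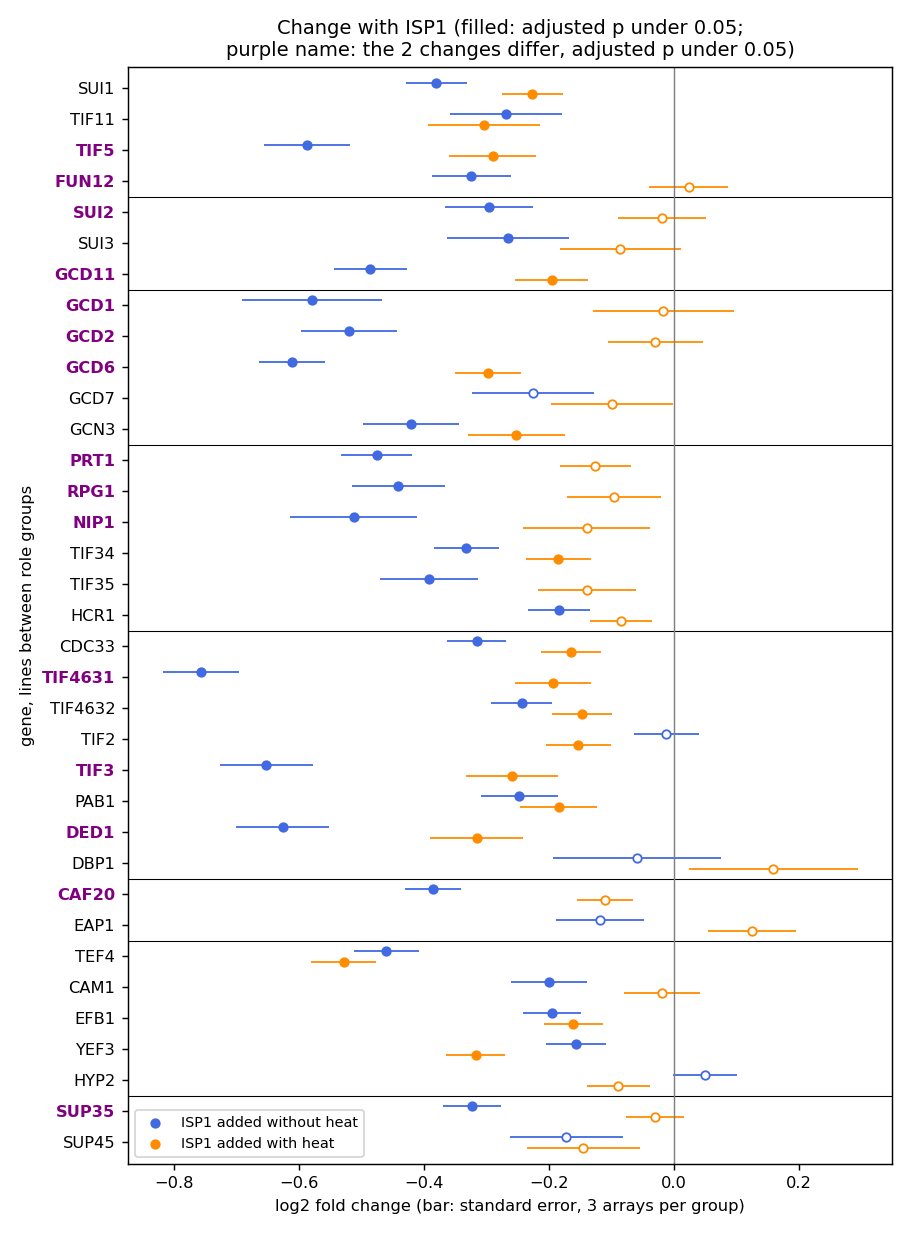
Log2 fold change (x axis; bars, SE) of the 35 genes with ISP1 in unheated (blue) and in heated (orange) YPD cells, 3 arrays per group; filled points passed an adjusted p of 0.05, and purple names mark the 15 genes whose 2 changes differed by limma's interaction test. For those 15 the orange point lies to the right of the blue one, whereas both points coincide nearly for TEF4 and TIF11.

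In SC medium myristate-treated cells were set against untreated ones, to ask what the fatty acid supplement changes. Of the 35 genes 27 fell, 1 rose and 7 did not pass, where 25.7% of all genes were called lower and 26.6% higher, 52.3% in all. The groups did not overlap for 32 of the 35 genes and for 62.7% of all genes. The median was -0.29, against -0.01 over all genes, and no gene of the 35 reached a 2-fold change, which 4.37% of all genes did. All 27 that fell with myristate were among the 30 that fell with heat, 100% of the first list and 90% of the second. Over all genes 86% of the 1398 lower with myristate were also lower with heat, and 54% of the 2227 lower with heat were lower with myristate. These 2 comparisons share no arrays.

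Falls covered all 4 scanning and joining factor genes, all 3 eIF2 genes, all 6 eIF3 genes and both release factor genes. TIF3 read 12.49, 12.62 and 12.60 in untreated SC cells and 11.99, 12.06 and 12.03 with myristate, a change of -0.54 ± 0.07 (adjusted p = 8.18e-06). TIF4631 went from 12.45, 12.53 and 12.37 to 11.93, 11.89 and 12.01, a change of -0.50 ± 0.06. TIF11 went from 12.75, 12.88 and 12.82 to 12.15, 12.42 and 12.41, a change of -0.49 ± 0.09, with its first treated array lower than the other two. In all 3 genes the groups did not overlap. GCD6 was lowest among the eIF2B genes, at -0.44 ± 0.05. GCN3 stood at -0.18 ± 0.08 with an adjusted p of 0.0559, and blocking on the replicate number made it a fall (adjusted p = 0.0391, in a range of 0.0212 to 0.167 over its alternatives). The falls of SUI3, GCD1, HCR1, TIF2, PAB1, YEF3 and SUP45 lost their call without at least 1 array of these groups. GCD1 lost it whichever of the 6 arrays was left out (adjusted p = 0.0634 to 0.0925). The call changed in 7 of the 13 alternatives for TIF2, in 5 for SUI3, in 3 for HCR1 and in 1 for PAB1.

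DBP1 rose, from 8.25, 8.35 and 8.43 to 9.21, 8.99 and 8.93, a change of 0.70 ± 0.14 or 1.62-fold (adjusted p = 0.000292). Every treated array was above every untreated one. TEF4 fell by 0.32 ± 0.05 and YEF3 by 0.15 ± 0.05, while CAM1 (0.00 ± 0.06), HYP2 (-0.02 ± 0.05), EFB1 (-0.08 ± 0.05) and EAP1 (-0.01 ± 0.07) did not pass.

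ISP1 added to myristate was compared with myristate alone. By limma none of the 35 genes passed, and none had an unadjusted p under 0.05. Over all genes 0.0184% were called, or 1 gene, and 349 had an unadjusted p under 0.05. The changes of the 35 ran from -0.09 for SUP45 to 0.08 for TIF11, and their 95% confidence intervals all lay between -0.28 and 0.33, and changes inside these bounds were not resolved with 3 arrays per group. TIF4631, for instance, read 11.98, 12.02 and 11.98 with both agents, which overlaps the 11.93, 11.89 and 12.01 of myristate alone. The difference between this and the ISP1 change in YPD was not tested.

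Untreated cells in the 2 media were also compared. In SC 20 of the 35 genes were lower, 3 were higher and 12 did not pass, where 40.9% of all genes were called lower and 18.9% higher, 59.8% in all. No gene of the 35 reached 2-fold, which 6.11% of all genes did, and the groups did not overlap for 27 of the 35 genes and 67.8% of all genes. The median of -0.16 was close to the -0.13 of all genes. With median centring, which moves the median of all genes to -0.07, the falls dropped to 13, and the 7 lost calls included TIF4631, GCD11 and PAB1. The 3' minus 5' signal was lower in SC for 9 of the 11 control pairs of probe sets, some of which cover the same transcript. Its mean ran from 0.81 to 0.90 on SC arrays against 1.19 to 1.31 on YPD arrays, and its part in these differences was not tested.

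DED1 stood out, reading 11.76, 11.71 and 11.72 in YPD and 12.66, 12.70 and 12.59 in SC, a change of 0.92 ± 0.07 or 1.89-fold (adjusted p = 8.13e-09). DED1 fell with each single treatment set against its own control, by 0.63 with ISP1, by 0.47 with heat and by 0.40 ± 0.07 with myristate. DBP1 was higher in SC as well, by 0.58 ± 0.14, and CAM1 by 0.18 ± 0.06, the latter not with quantile normalization (adjusted p = 0.0693, in a range of 0.00411 to 0.0693 over its alternatives). CAM1 read 12.49, 12.48 and 12.51 in YPD and 12.62, 12.70 and 12.71 in SC. Among the falls GCD1 led, at 11.30, 11.32 and 11.30 in SC, a change of -0.61 ± 0.11. RPG1 read 12.82, 12.85 and 12.80 in SC (-0.52 ± 0.07) and TIF3 12.49, 12.62 and 12.60 (-0.42 ± 0.07). All 3 lay below their YPD arrays.

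Several factors are encoded by paralogous pairs, and 4 such pairs were compared by the difference between the changes of both genes. Probe sets of different genes cannot be ranked by level, but their changes can be set side by side. The log2 change of TIF4631 minus that of TIF4632 was -2.14 ± 0.05 with heat (95% confidence interval -2.24 to -2.03) and -0.51 ± 0.05 with ISP1. DED1 fell while DBP1 rose with heat, a difference of -1.61 ± 0.13, and with myristate, a difference of -1.10 ± 0.13. TEF4 parted from CAM1 by -1.34 ± 0.05 with heat and by -0.51 ± 0.05 when ISP1 was added to heat. For each of these the exact two-sided permutation test gave p = 0.1, the smallest that 3 arrays against 3 allow. HYP2 and ANB1, the genes of the aerobic and the hypoxic form of eIF5A, differed by 0.30 ± 0.14 with heat (interval -0.01 to 0.61, exact p = 0.2). They differed by 0.34 ± 0.14 with ISP1 (interval 0.03 to 0.65, exact p = 0.1). With myristate the difference was 0.31 ± 0.14 (interval 0.005 to 0.62, exact p = 0.2). In the remaining comparisons the interval of this pair included 0. ANB1 lay low, at 7.30 ± 0.18 in untreated YPD cells (SD, n = 3), and its transcript is closely related to that of HYP2.

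**Figure D4:**
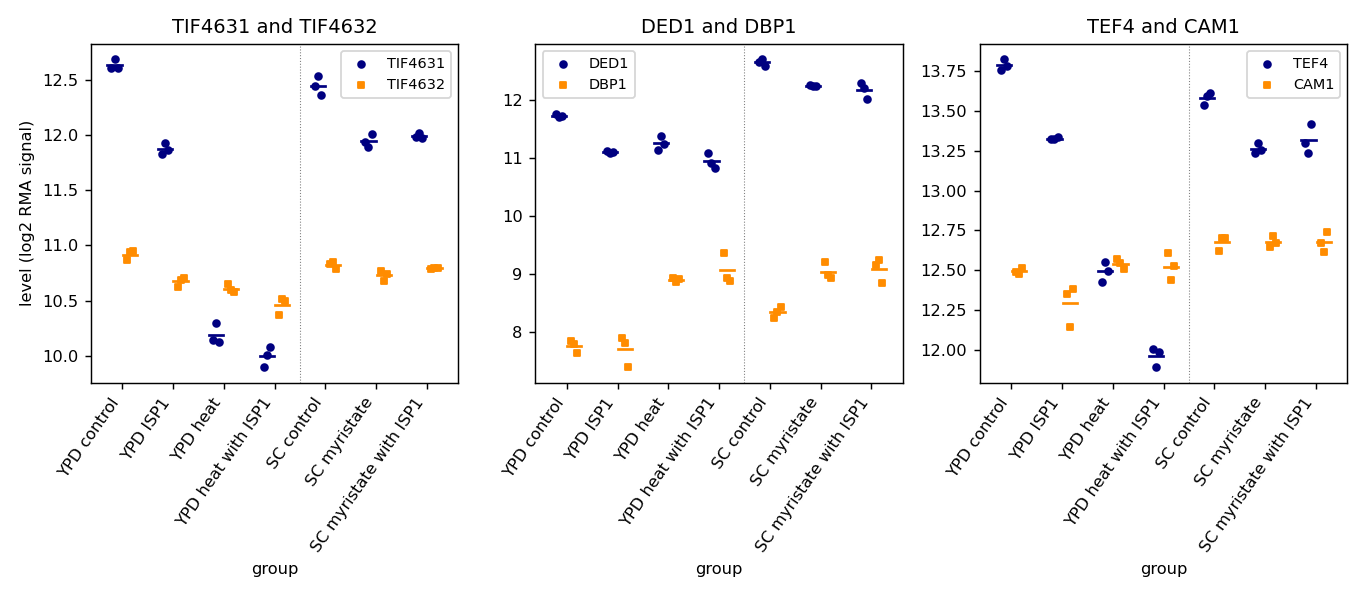
Log2 signal on each array (points; lines, group means of 3 arrays) of 3 paralogous pairs in the 7 groups, YPD to the left of the dotted line and SC to the right; the y axes differ and do not start at 0, and levels of different genes are not comparable. TIF4631 dropped by 2.45 with heat and TIF4632 by 0.31, DED1 dropped and DBP1 climbed with heat and with myristate, and TEF4 dropped by 1.29 with heat where CAM1 differed by 0.05.

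Other genes of the pathway, grouped by function and chosen with earlier results of these data known, were followed in the same comparisons. Of 12 measured genes of paralogues and further cytosolic factors 8 fell and 1 rose with heat, where 40.9% of all genes were called lower and 39.8% higher. RLI1, the gene of the ribosome recycling ATPase, changed by -2.33 ± 0.11, NEW1, an eEF3-like gene, by -1.46 ± 0.08 and TIF6, the gene of eIF6, by -1.29 ± 0.07. HEF3, a paralogue of YEF3, rose by 1.15 ± 0.13 with heat and by 0.83 ± 0.13 with myristate, while YEF3 fell in both. TEF2, whose probe set may also bind TEF1 transcripts of elongation factor eEF1A, stood at 0.02 ± 0.04 with heat, at a signal of 14.74 ± 0.01 in untreated cells (SD, n = 3) that is near the array's top. EFT2, which encodes the same protein (eEF2) as EFT1 and whose probe set may bind both transcripts, changed by -0.30 ± 0.04 with heat and stood at 0.01 ± 0.04 with ISP1.

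Hypusine and diphthamide are modified residues of eIF5A and eEF2. Of their 9 synthesis genes 8 fell with heat, with a median of -1.15, where 40.9% of all genes were called lower. With ISP1 all 9 fell, with a median of -0.91, where 33.2% of all genes were called lower. RRT2, a diphthamide synthesis gene, was the one that did not pass with heat (0.01 ± 0.07). The diphthamide synthesis genes DPH1 (-2.26 ± 0.12) and DPH2 (-1.96 ± 0.06), and LIA1, the gene of the hydroxylase that completes hypusine (-2.18 ± 0.12), led under heat. DPH5, another diphthamide synthesis gene, changed by -1.36 ± 0.06. With myristate 8 of the 9 fell, where 25.7% of all genes were called lower. The interaction was positive and passed for 6, where 21.8% of all genes were called higher.

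The general amino acid control genes act on eIF2 through the kinase Gcn2. With heat 5 of 5 fell, where 40.9% of all genes were called lower. Among them were YIH1, the gene of an inhibitor of Gcn2 activation (-1.37 ± 0.07), GCN2 itself (-0.83 ± 0.08), its activator gene GCN1 (-0.52 ± 0.07) and GCN4, the gene of the transcription factor whose translation this pathway controls (-0.39 ± 0.04). With ISP1 4 of the 5 fell, where 33.2% of all genes were called lower, and GCN4 rose, by 0.24 ± 0.04 (adjusted p = 0.000108). GCN4 went from 13.82 ± 0.03 in untreated cells to 14.06 ± 0.03 with ISP1 and 13.43 ± 0.03 with heat (SD, n = 3). Transcript levels do not show how much of the Gcn4 protein was made.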

How the data were processed

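Per the labels' protocols, biotin-labelled material from phenol-extracted total RNA was read on Affymetrix yeast arrays. The authors deposited log2 signals, 1 per probe set and array. RMA and the affy package are listed, without versions or further steps, in the submitters' processing notes. RMA normalizes between arrays, which hides a shift common to most transcripts. The table held 10928 probe sets. Names came from the platform annotation: 5498 probe sets carried 1 yeast gene, 1746 carried 1 gene of another species and served as background, and symbols were updated through the gene identifier for 12. The probe set with the highest mean stood for a gene; each measured translation factor gene had only 1. No genome or sequence table was used, so no sequence or coordinate is printed.

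In limma 3.58.1 under R 4.3.3, lmFit and eBayes fitted 1 mean per group to the 21 arrays, with 14 residual degrees of freedom. Each of the 7 comparisons was adjusted over 5449 genes (threshold 0.05). The fit was tested on simulated data with noise independent between arrays, so arrays that deviate together were not simulated. Log2 changes of 0.5 were recovered for 83 to 90% of genes in comparisons of 2 groups and for 67% in the interaction. Between 3.19 and 6.36% of the calls were false. No replicate pair shared more than 0.869% identical values. Replicate numbers come from the titles. Same-numbered arrays were taken to deviate together where r exceeded 0.1 in every pair. That held for ISP1 against control (r 0.230 to 0.530), heat with ISP1 against heat (0.172 to 0.433) and myristate against control (0.322 to 0.626). It did not hold for the others, although r was positive in every pair for heat against control (0.059 to 0.207) and for the interaction (0.040 to 0.530). As alternatives the replicate number was a block, dim genes were dropped, yeast probe sets were quantile-normalized or centred on their median, the variance prior was robust with an intensity trend, probe sets of a gene were averaged, a 2-fold change was required, the fit held only the arrays compared, or single arrays were left out. Values per array are given for the 3 largest rises and falls called in a comparison and for genes moving against their role group, with others as examples. Genes, lists and this rule were chosen with earlier results of these data known.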

Additional observations from a re-analysis of the deposited data

Results flagged for a closer look

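The ISP1 change differed between heated and unheated YPD cells, by limma's interaction test over all genes, for 15 of the 35 genes. The same test passed for 40.9% of all genes, 21.8% called higher and 19.1% lower. All 15 differences were positive. The differences, ISP1 change with heat minus ISP1 change without it on the log2 scale, were 0.56 for TIF4631, 0.56 for GCD1, 0.49 for GCD2, 0.39 for TIF3, 0.37 for NIP1, 0.35 for PRT1, 0.35 for FUN12 and 0.35 for RPG1. They were 0.31 for GCD6, 0.31 for DED1, 0.30 for TIF5, 0.29 for SUP35, 0.29 for GCD11, 0.28 for SUI2 and 0.28 for CAF20. The adjusted p-values ran from 4.81e-05 for TIF4631 to 0.0458 for NIP1. The calls of 11 of the 15 were kept under each of the 19 alternatives run for single genes, which leave out the 2-fold minimum. The call of NIP1 was lost under 10 of them, that of SUI2 under 8, that of TIF5 under 6 and that of DED1 under 2.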

How the results depend on the processing

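No call of a translation factor gene changed direction under an alternative. No gene reached a 2-fold change, so that the count of called genes was 0 with that minimum, in ISP1 against control, heat with ISP1 against heat, the interaction, myristate against control and SC against YPD. For heat with ISP1 against heat the count of 17 fell to 6 with only the arrays compared, and leaving out 1 array gave 9 to 16. With the replicate number as a block the counts were 32 for heat, 30 for ISP1, 17 for heat with ISP1 against heat, 17 for the interaction, 29 for myristate, 0 for myristate with ISP1 and 23 for the media. Other than for GCD7 and GCN3, named in the report, that block changed no call in the comparisons whose numbers pair the arrays. The alternatives run for single genes leave out the 2-fold minimum. In all of them the calls kept were 32 of 32 for heat and 25 of 29 for ISP1. Those kept were 6 of 17 for heat with ISP1 against heat and 11 of 15 for the interaction. For myristate 21 of 28 were kept and for the media 15 of 23. The causes of the lost calls were not tested. With 3 arrays per group, changes between 2 groups had an SE of 0.05 to 0.14 and interactions one of 0.06 to 0.19, and signals near 14 may understate differences.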

Other observations

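Translation factors of mitochondria, whose ribosomes are separate from those of the cytosol, were measured by 7 genes. With heat 3 rose, 1 fell and 3 did not pass, with a median of 0.16 against -0.00 over all genes; the share that rose was near the 39.8% of all genes called higher. AIM23, the gene of mitochondrial initiation factor 3, rose by 0.88 ± 0.08 and MEF2, the gene of a mitochondrial elongation factor involved in ribosome recycling, by 0.75 ± 0.06. IFM1, the gene of initiation factor 2, rose by 0.58 ± 0.08, while MRF1, the gene of the mitochondrial release factor, fell by 0.27 ± 0.05. With ISP1 6 of the 7 rose and none fell, where 27.9% of all genes were called higher, and the median was 0.27 against -0.04 over all genes. The elongation factor gene MEF1 led, at 0.43 ± 0.07. With myristate 6 rose, where 26.6% of all genes were called higher, and the median was 0.21 against -0.01 over all genes. The mitochondrial and cytosolic lists were not tested against each other.

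Ribosome rescue, the freeing of stalled ribosomes, was followed in 5 genes. With heat RKR1, the gene of a ubiquitin ligase of nascent chains on stalled ribosomes, fell by 1.05 ± 0.07 and DOM34, which encodes a relative of the release factor eRF1, by 0.71 ± 0.06. Over all genes 40.9% were called lower and 39.8% higher. RQC2 rose by 0.23 ± 0.09, with all heated arrays above the untreated ones. SKI7 passed as a rise of 0.22 ± 0.10 (adjusted p = 0.0463), but its heated arrays, at 10.32, 10.05 and 9.90, overlapped the untreated ones, at 9.81, 9.84 and 9.98, and the first heated array stood highest. HBS1 did not pass.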
